A study of Homo sapiens with 24 samples.

Results

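The genes described here are 47 genes of DNA replication and S phase, which encode the replicative helicase and its loaders, the sliding clamp and clamp loader, the replicative polymerases, the enzymes that supply nucleotides, and the E2F factors, cyclins E and chromatin proteins that go with them. They were listed by symbol, without a rule on measured values, and were matched to the gene names of the array by the listed, an older or a newer symbol. All 47 were found among the 30982 gene names on the array, and all 47 were among the 22847 names with a probe that passed the filter on dim probes.

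RNA was taken from U87 MG cells, a line of human glioblastoma, 24 h after proton therapy (PT) and compared on Agilent 2-colour arrays. In U87 2 Gy and U87 10 Gy, cells irradiated with that dose of protons were set against untreated cells. In U87 Si306 + 2 Gy, and likewise in U87 Si306 + 10 Gy, cells given protons and 10 µM of Si306, an inhibitor of Src family kinases, were set against cells given the same proton dose alone, so both RNAs of these arrays came from irradiated cells. Cells given Si306 without protons were not analysed here. Treated RNA was in Cy5 and control RNA in Cy3 on every array, without a dye swap, so that within a configuration a dye effect of a probe cannot be told apart from the treatment, while it cancels in a difference between doses. Each configuration was measured on n = 2 arrays, and whether these carried RNA of separate cultures is not given in the sources used here, so the p-values measure the spread between these arrays, which may be technical. U87 MG is a single established line, and the levels are those of a whole culture, where fewer cells in S phase and less RNA of a gene per cell cannot be told apart.

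Replication origins are licensed in G1 when the origin recognition complex (ORC), CDC6 and CDT1 load the MCM helicase, and they fire in S phase when CDC45 and the GINS complex join it. PCNA, loaded by replication factor C (RFC), then holds the polymerases on DNA, replication protein A (RPA) covers the single strands, and FEN1 and LIG1 join the lagging strand. Many of these genes are transcribed in late G1 and S phase by E2F factors, whereas PCNA is also a known target of p53, which U87 cells carry in its wild-type form.

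Promoter sequences of these genes were searched for the letters of E2F sites, since E2F1 and E2F2 are themselves among the 47. Of the 47 genes, 40 had an entry in RefSeq's promoter table (GRCh38.p14). The motifs were the 4 octamers TTTCGCGC, TTTGGCGC, TTTCCCGC and TTTGCCGC, read on both strands of the 250 bases before each start, where a match of 1 octamer can overlap a match of another on the opposite strand, as in MCM6. A match was found in 17 of the 40 genes (42.5%), against 928 of the 27305 genes of the table (3.4%), and at 18 of their 55 starts (32.7%), against 979 of 35116 starts (2.79%). The 120 bases before a start are printed for 6 genes on which the results turn, in the direction of the gene, with the motif in capitals. A motif on the opposite strand appears as its reverse complement. PCNA (chr20:5126623-5126742, minus strand), TYMS (chr18:657533-657652, plus strand) and POLA2 (chr11:65261842-65261961, plus strand) are shown because they rose the most after PT at 10 Gy, MCM7 (chr7:100101398-100101517, minus strand) and DUT (chr15:48332077-48332196, plus strand) because they were among the genes that fell when Si306 was added, and POLE (chr12:132687343-132687462, minus strand) because its value rose with Si306. All 6 were chosen among genes with a motif, while RRM2, CDC45L, GINS1, GINS3 and TK1, with the largest falls in U87 Si306 + 2 Gy, and ORC6L, with the largest rise there, had no match. For PCNA, MCM7 and DUT, which have several starts in the table, a start with a motif is shown.
PCNA: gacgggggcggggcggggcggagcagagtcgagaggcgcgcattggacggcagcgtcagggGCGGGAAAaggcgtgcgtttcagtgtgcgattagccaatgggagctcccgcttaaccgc
TYMS: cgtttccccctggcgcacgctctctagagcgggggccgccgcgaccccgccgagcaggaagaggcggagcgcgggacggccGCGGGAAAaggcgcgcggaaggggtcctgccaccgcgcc
POLA2: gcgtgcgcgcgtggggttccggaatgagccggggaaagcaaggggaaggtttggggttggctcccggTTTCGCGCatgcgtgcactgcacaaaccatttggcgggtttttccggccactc
MCM7: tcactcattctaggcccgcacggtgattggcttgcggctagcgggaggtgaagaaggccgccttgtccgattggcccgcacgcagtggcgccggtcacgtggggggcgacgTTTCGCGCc
DUT: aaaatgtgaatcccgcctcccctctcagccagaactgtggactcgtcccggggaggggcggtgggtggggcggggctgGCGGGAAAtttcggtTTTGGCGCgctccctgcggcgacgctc
POLE: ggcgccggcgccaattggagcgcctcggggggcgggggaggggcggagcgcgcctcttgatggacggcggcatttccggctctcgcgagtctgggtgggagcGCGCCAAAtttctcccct

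The promoters with and without a motif are given as a description. In U87 Si306 + 2 Gy the median log2 ratio was -0.42 over the 17 genes with a motif and -0.34 over the 23 without, and in U87 Si306 + 10 Gy it was -0.35 and -0.33. In U87 2 Gy these medians were 0.26 and 0.05, and in U87 10 Gy 0.23 and 0.13. With a motif, 16 of 17 genes fell in U87 Si306 + 2 Gy and POLE rose, and without, 20 of 23 fell and 2 rose, where 27.9% of all genes fell and 38.6% rose; under median centring 38 of the 47 genes were called higher against 0 there. In U87 2 Gy, 10 rose and 3 fell with a motif, and 9 rose and 4 fell without, where 32.2% of all genes rose and 25% fell. The difference between genes with and without these letters was not tested.

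Of the whole series, the labels give 6 replicates for each configuration, but the headers name 8 arrays scanned 3 times each, on 2 slides. PT alone was on 1 slide and Si306 on the other. The 2 scans whose label and array disagree, U87 2 Gy replicate 5 and U87 10 Gy replicate 2, were left out, and no count of the 47 genes moved by more than 1 in a configuration when they were averaged by array. Over the 22 scans used, 63.4% to 74.7% of probes passed the scanner software's test against background in Cy5 and 57.3% to 66.5% in Cy3. VIM, FN1, CD44, TNC and NES, which mark U87 and mesenchymal glioma cells, were detected on 8 of 8 arrays in both channels and CHI3L1 on 4. PTPRC and KRT5, markers of leukocytes and keratinocytes, were detected on none. The other 8 markers of other cell types were each detected in a channel on at least 3 arrays. CDKN2A, which is deleted in U87 cells, was detected on 8 of 8 arrays by the 1 of its 2 probes that was kept, so that detection alone did not establish that a transcript was there. That probe was also called higher with Si306 (0.82 at 2 Gy and 0.73 at 10 Gy), a size that most of the 47 genes did not reach. Of the 8 tested markers of other cell types, 6 rose and 1 fell in U87 Si306 + 2 Gy, and 4 rose and 2 fell in U87 Si306 + 10 Gy (medians of 0.15 at both). The part of such probe signal in the changes of the 47 genes was not tested.

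The scale of every value below is the log2 ratio of treated to control RNA after normexp background correction and loess within each scan, which sets genes of like brightness to a ratio near 0. The 47 genes were bright, with 31 of them in the brightest of 4 classes into which all genes tested were divided by mean intensity, and the dye curve rose with brightness. With median centring of each scan in place of loess, the median of all genes tested moved to 0.27, 0.23, 0.44 and 0.26 for PT at 2 Gy, PT at 10 Gy and Si306 added at each of these doses, in this order. In the brightest class it was 0.64, 0.53, 1.01 and 0.65. A value under that scaling was therefore read both against 0 and against genes of the same brightness class, the second reading being chosen after the data were seen.

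Most of the 47 genes were lower when Si306 was added to PT. In U87 Si306 + 2 Gy, 41 of 47 genes fell and 5 rose (adjusted p under 0.05 in limma), while 27.9% of all genes tested fell and 38.6% rose. The median log2 ratio of the 47 genes was -0.36, with -0.37 on 1 array and -0.38 on the other over the genes measured on each, against 0.04 for all genes. In U87 Si306 + 10 Gy, 38 of 47 fell and 5 rose, against 27.2% and 35.3% of all genes, with a median of -0.29, which was -0.31 and -0.29 on the 2 arrays, against 0.03. The values ran from -0.93 to 0.69 and from -0.89 to 0.65, so no measured value of a member reached 2-fold in either configuration (of all genes, 0.57% rose and 0.158% fell 2-fold in U87 Si306 + 2 Gy, and 0.289% and 0.0832% in U87 Si306 + 10 Gy). These directions were the same with the log ratio of the scanner software (medians of -0.40 and -0.36), but against 0 they turned under median centring, where the medians were 0.55 and 0.26 and 38 and 32 genes were called higher. Against genes of the same brightness class under that scaling, 41 of 47 and 40 of 47 lay lower, with medians of -0.36 and -0.26.

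**Figure D1:**
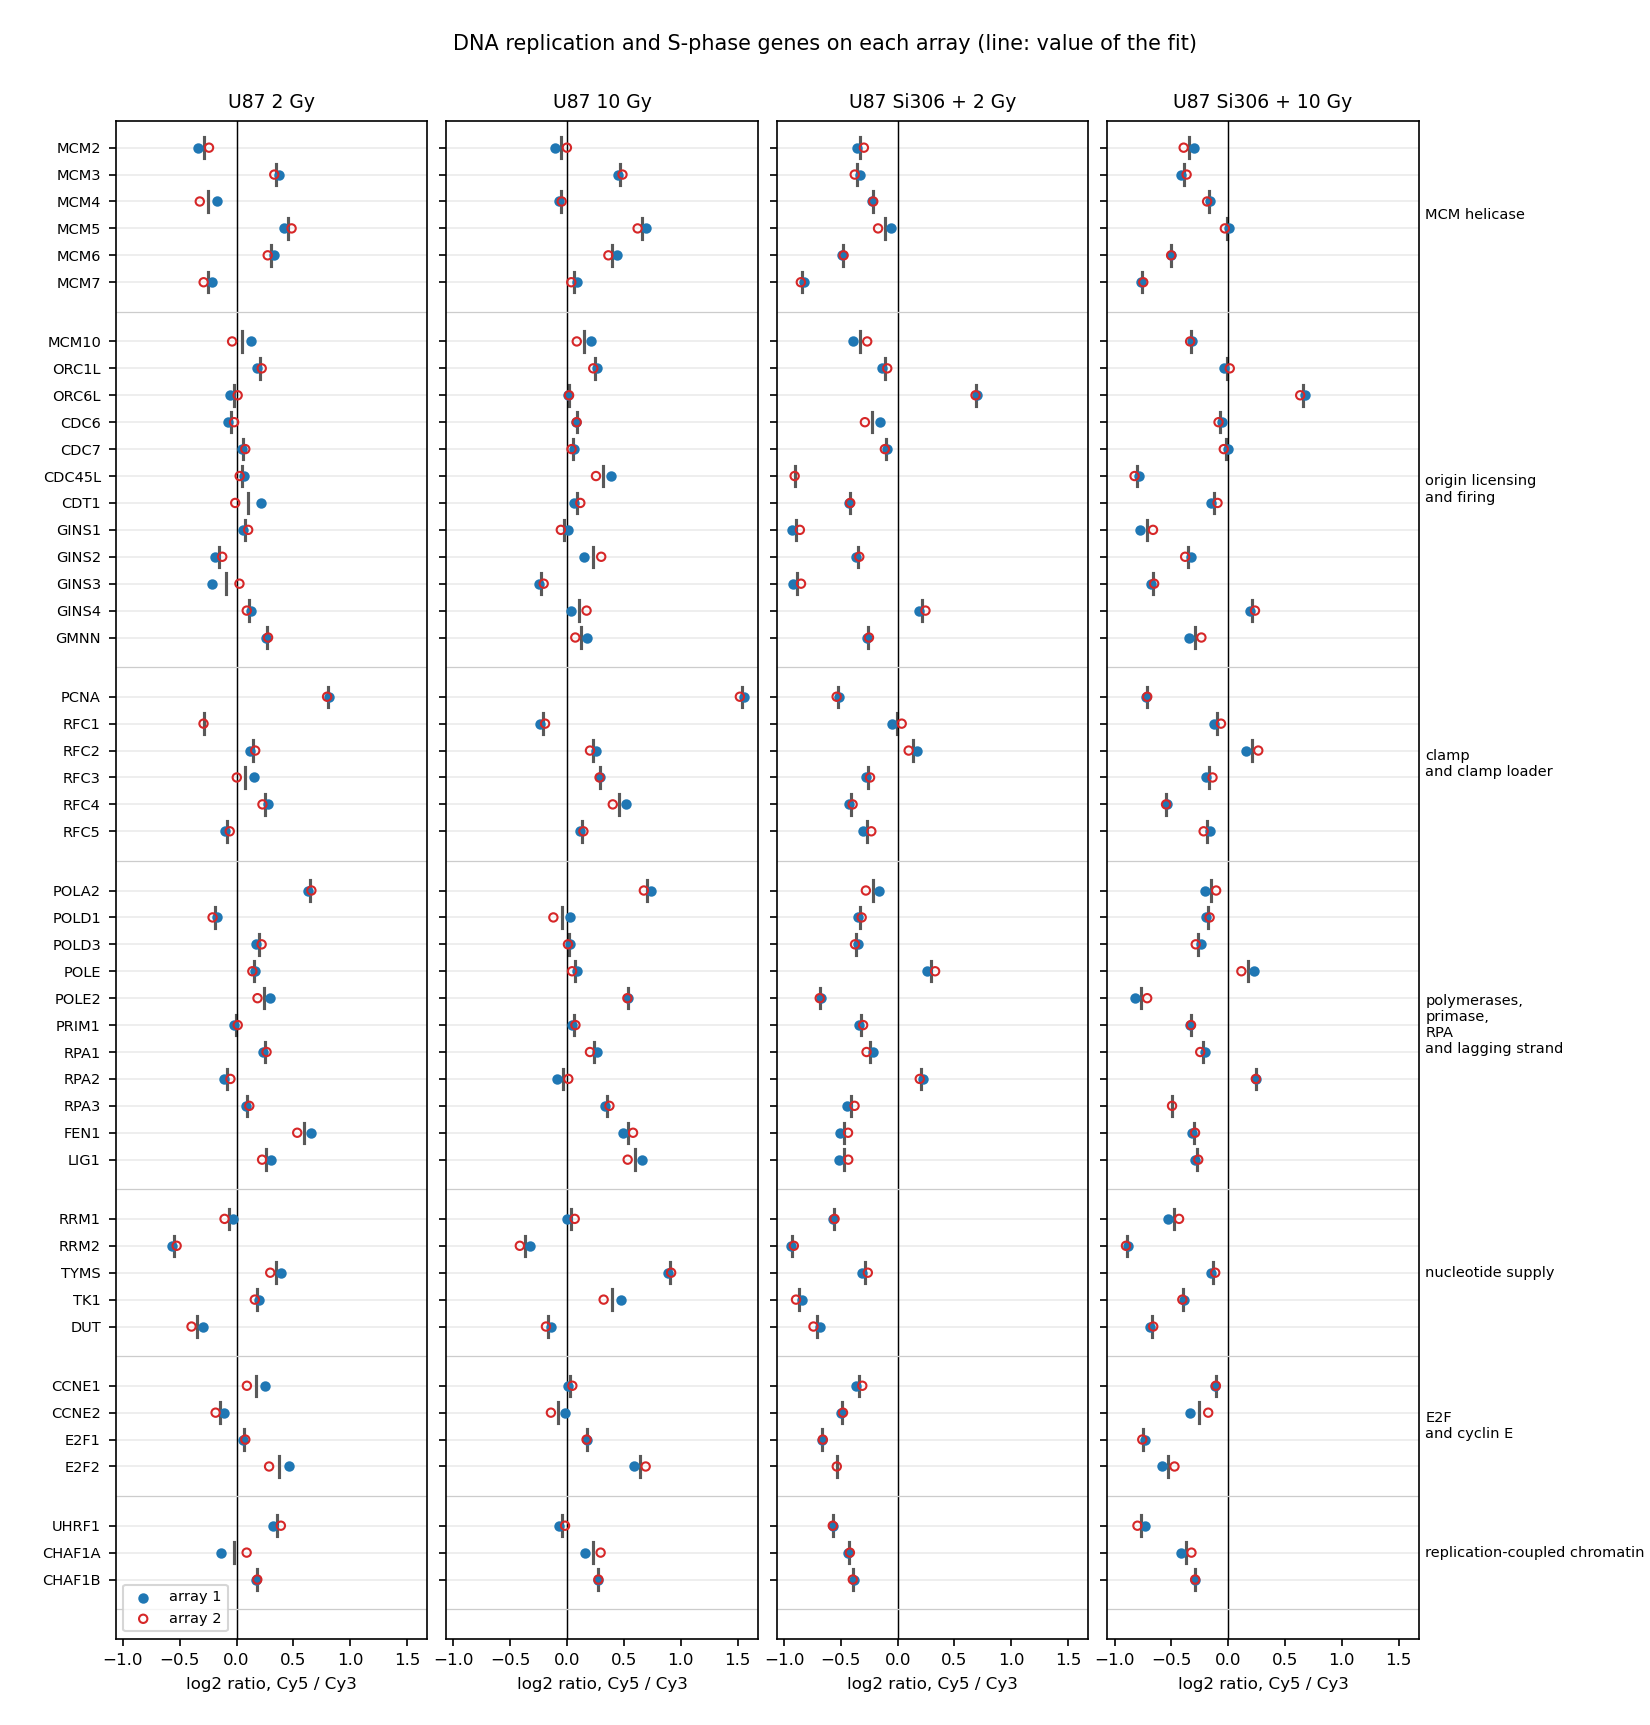
Log2 ratios (Cy5 over Cy3) of the 47 genes, grouped by role, in the 4 configurations; filled and open points are the 2 arrays and the line is the value of the fit. With Si306, 42 of 47 values lie left of 0 at each dose, a direction that turns against 0 under median centring; after PT alone 30 and 36 of 47 lie right of 0.

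Most calls with Si306 were shared by the 2 doses. Of the genes that fell, 37 did so at both doses, which is 90.2% of the 41 at 2 Gy and 97.4% of the 38 at 10 Gy. With 41 and 38 of the 47 genes lower, most of this overlap is fixed by the counts themselves. The overlap over all genes tested is not given here, so these shares are not read as agreement between the doses. The 5 that rose were the same at both doses (ORC6L, POLE, GINS4, RPA2 and RFC2), and no gene was called in opposite directions. These comparisons have different control RNA, but their arrays lay on 1 slide.

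After PT alone genes were called in both directions. In U87 2 Gy, 23 of 47 rose and 9 fell, against 32.2% and 25% of all genes, with a median of 0.10 against 0.02 for all genes; the medians on the 2 arrays were 0.13 and 0.09. In U87 10 Gy, 26 rose and 4 fell, against 31.1% and 26.4%, with a median of 0.13 against 0.02 and medians of 0.15 and 0.14 on the arrays. Under median centring the medians were 0.56 and 0.58, but against genes of the same brightness class only 24 of 47 lay higher at 2 Gy (median 0.02) and 31 of 47 at 10 Gy (median 0.09). PCNA alone had a measured change of 2-fold, in U87 10 Gy, where 0.819% of all genes rose and 0.144% fell 2-fold; in U87 2 Gy, where 0.675% rose and 0.0438% fell 2-fold, no member did. Both doses were compared with untreated cells, and RNA of PT alone was also the control of the Si306 arrays, so the values of the configurations are set side by side and their likeness is not counted.

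**Figure D2:**
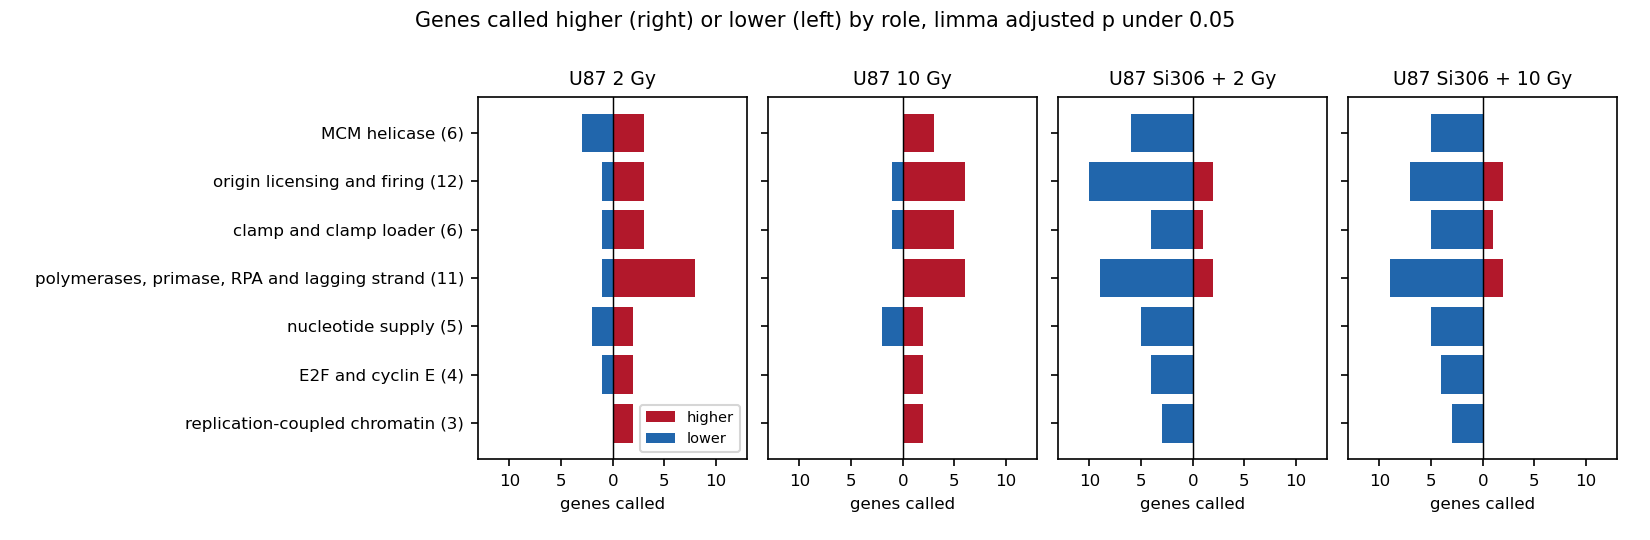
Number of genes called higher (right) or lower (left) at an adjusted p under 0.05, by role, with the number of genes of each role in parentheses. With Si306 the bars lie mostly to the left in every role, from 5 of 5 nucleotide supply genes to 4 of 6 clamp and clamp loader genes at 2 Gy; against 0 this turns under median centring.

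The counts by role below are to be read beside the shares of all genes given above for each configuration. The MCM helicase unwinds DNA at the fork. With Si306, 6 of its 6 genes fell at 2 Gy and 5 of 6 at 10 Gy (medians -0.34 and -0.37), and against 0 6 and 5 of them were called higher under median centring, while 6 of 6 lay below genes of their brightness class. MCM7 fell the most. It read -0.83 and -0.85 on the arrays of U87 Si306 + 2 Gy (-0.84, SE 0.03, adjusted p = 1.02e-08, 1.79-fold) and -0.77 and -0.75 on those of U87 Si306 + 10 Gy (-0.76, SE 0.03, adjusted p = 3.18e-08, 1.69-fold), so the arrays lay close together. After PT alone the subunits split. MCM5, at 0.42 and 0.48 in U87 2 Gy (0.45, SE 0.04, adjusted p = 2.39e-06) and 0.69 and 0.62 in U87 10 Gy (0.66, SE 0.04, adjusted p = 1.25e-07), rose together with MCM3 (0.35 and 0.47) and MCM6 (0.30 and 0.40). MCM2, at -0.34 and -0.24 (-0.29, SE 0.04, adjusted p = 0.00011), MCM4 (-0.25) and MCM7, at -0.21 and -0.29 (-0.25, SE 0.03, adjusted p = 7.69e-05), fell at 2 Gy, and at 10 Gy none of these 3 was called, with values of -0.05, -0.06 and 0.06. Under median centring 6 of 6 subunits were called higher against 0 at 2 Gy, MCM2 (0.25), MCM4 and MCM7 (0.42) included. The split was thus not seen against 0 on that scale, while 3 subunits lay above and 3 below genes of their brightness class.

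Origin licensing and firing took in 12 genes, of which 10 fell and 2 rose in U87 Si306 + 2 Gy and 7 fell and 2 rose in U87 Si306 + 10 Gy. Of all genes, 27.9% fell and 38.6% rose in the first and 27.2% and 35.3% in the second. Under median centring 8 of the 12 were called higher and 2 lower against 0 at each dose, while 8 of 12 lay below genes of their brightness class. The licensing and firing genes with the largest falls were partners of the helicase at the fork. CDC45L (the array's name for CDC45) was measured on only 1 array of U87 Si306 + 2 Gy, where it read -0.91 (SE 0.06, adjusted p = 3.91e-07), and it read -0.78 and -0.82 in U87 Si306 + 10 Gy (-0.80, SE 0.04, adjusted p = 1.28e-07). GINS1 read -0.93 and -0.86 at 2 Gy (-0.90, SE 0.04, adjusted p = 1.52e-08) and -0.77 and -0.66 at 10 Gy (-0.72, SE 0.04, adjusted p = 9.52e-08). GINS3 read -0.92 and -0.85 at 2 Gy (-0.89, SE 0.05, adjusted p = 8.75e-08) and -0.68 and -0.65 at 10 Gy (-0.67, SE 0.05, adjusted p = 8.55e-07), and its second probe fell too (-0.44 and -0.33). On all of these arrays the genes lay below 0, and GINS2 fell less (-0.35 at both doses).

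GINS4, the remaining subunit of that complex, went the other way, with 0.19 and 0.24 at 2 Gy (0.22, SE 0.04, adjusted p = 0.000575) and 0.19 and 0.24 at 10 Gy (0.21, SE 0.04, adjusted p = 0.000683), and with 0.34 and 0.29 on its second probe. ORC6L, the array's name for the ORC subunit ORC6, had the largest rise of the 47 genes in both Si306 configurations, at 0.69 on both arrays of U87 Si306 + 2 Gy (SE 0.03, adjusted p = 2.95e-08, 1.61-fold) and at 0.67 and 0.63 in U87 Si306 + 10 Gy (0.65, SE 0.03, adjusted p = 6.15e-08, 1.57-fold). This rise rests on the brightest of its 3 probes (chr16:45289505-45289564 in hg17, the build of the array's annotation). The probe 0.485 kb away read -0.09 and 0.19, and the probe 3.88 kb away read 0.08 and -0.07, so the 3 probes of this gene did not give the same direction.

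The loading factors CDC6 and CDT1 and the inhibitor geminin (GMNN) changed less than CDC45L, GINS1 and GINS3. CDC6 fell at 2 Gy (-0.22) and read -0.07 at 10 Gy, without a call. CDT1 fell by 0.42 and 0.12 on the log2 scale, though its second probe read -0.17 and 0.12. GMNN fell by 0.26 and 0.29. MCM10, which helps the helicase to start, fell by 0.33 at both doses, but its second probe read -0.18 and, without a call at 10 Gy, -0.02. ORC1L and the kinase gene CDC7 fell at 2 Gy (-0.11 and -0.10) and were not called at 10 Gy (-0.01 and -0.02), with no call for the difference between the doses.

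After PT alone, 3 of the 12 licensing and firing genes rose and 1 fell at 2 Gy, where 32.2% of all genes rose and 25% fell, and 6 rose and 1 fell at 10 Gy, against 31.1% and 26.4%. CDC45L rose at 10 Gy (0.32, arrays at 0.39 and 0.25) but read 0.05 at 2 Gy. GINS2 fell at 2 Gy (-0.16) and rose at 10 Gy (0.23), with no overlap of the arrays (-0.19 and -0.13 against 0.15 and 0.30). GINS3 fell at 10 Gy (-0.23, arrays at -0.25 and -0.21, SE 0.05, adjusted p = 0.00218) and was called higher against 0 under median centring (0.27), where the median of its brightness class was 0.53. Without the first array of U87 10 Gy its adjusted p was 0.0561, and its second probe fell too (-0.23). GMNN rose at both doses (0.27 and 0.12). ORC1L was called higher at both doses (0.20 and 0.25), but its probe was dim, with a mean log2 intensity of 6.775 against 6.702 for GINS1. At 2 Gy the ORC1L probe was well above background in Cy3 on only 1 array, so its rise there is uncertain. GINS1 was well above background in neither channel at 2 Gy and only in Cy5 of 1 array at 10 Gy, so no direction is given for it.

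PCNA, the sliding clamp, had the largest change of the 47 genes. In U87 2 Gy it read 0.82 and 0.80 (0.81, SE 0.03, adjusted p = 8.06e-09, 1.75-fold) and in U87 10 Gy 1.55 and 1.52 (1.54, SE 0.03, adjusted p = 2.88e-11, 2.9-fold). When Si306 was added, it read -0.52 and -0.54 (-0.53, SE 0.03, adjusted p = 1.19e-07) and -0.72 and -0.71 (-0.72, SE 0.03, adjusted p = 2.59e-08) relative to PT alone. Under median centring all 6 clamp and clamp loader genes, PCNA included, were called higher against 0 in U87 Si306 + 2 Gy, and 4 higher and 0 lower in U87 Si306 + 10 Gy. The arrays of each configuration differed by at most 0.03, and this probe (chr20:5043957-5044102 in hg17, a span that is longer than the probe) was spotted 10 times on each array.

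The clamp loader genes were less uniform. After PT at 10 Gy, RFC2, RFC3, RFC4 and RFC5 rose (0.23, 0.29, 0.46 and 0.13), though a second RFC3 probe, annotated 130 kb away, read 0.04 without a call. With Si306 RFC3, RFC4 and RFC5 fell (-0.26, -0.41 and -0.27 at 2 Gy and -0.17, -0.54 and -0.19 at 10 Gy), whereas these 3 were higher against 0 under median centring at 2 Gy. RFC2 rose in all 4 configurations. With Si306 it read 0.17 and 0.10 at 2 Gy (0.13, SE 0.04, adjusted p = 0.00942) and 0.16 and 0.26 at 10 Gy (0.21, SE 0.04, adjusted p = 0.000549), but at 2 Gy it was not called with the log ratio of the scanner software (adjusted p = 0.106) or without the first array (adjusted p = 0.155). RFC1, the large subunit, fell after PT, at -0.29 in U87 2 Gy, where 1 array gave no value (SE 0.05, adjusted p = 0.000881), and at -0.24 and -0.19 in U87 10 Gy (-0.22, SE 0.04, adjusted p = 0.000598). Under median centring both values were above 0 (0.38 and 0.28) but below the medians of its brightness class (0.64 and 0.53). With Si306 its 2 probes disagreed, the brighter reading -0.01 and -0.10 and the other 0.36 and 0.38.

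Polymerases, primase, RPA and the lagging-strand enzymes made up 11 genes. With Si306, 9 of them fell and 2 rose at each dose (medians -0.33 and -0.26). Of all genes, 27.9% fell and 38.6% rose at 2 Gy, and 27.2% and 35.3% at 10 Gy. Under median centring 9 of the 11 were called higher against 0 at each dose. POLE2, the second subunit of polymerase epsilon, fell the most, to -0.68 at 2 Gy and to -0.77 at 10 Gy (arrays at -0.82 and -0.71, SE 0.04, adjusted p = 6.04e-08, 1.7-fold). Of the RPA trimer, RPA1 (-0.25 and -0.22) and RPA3 (-0.41 and, on the 1 array that measured it, -0.49) fell. RPA2 rose instead, at 0.22 and 0.19 in U87 Si306 + 2 Gy (0.21, SE 0.03, adjusted p = 0.000299) and at 0.24 on both arrays of U87 Si306 + 10 Gy (SE 0.03, adjusted p = 0.00011). RPA2 has 1 kept probe, so the difference within the trimer rests on that probe.

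The value of POLE, the catalytic subunit of polymerase epsilon, also rose with Si306, at 0.26 and 0.33 (0.29, SE 0.04, adjusted p = 4.06e-05) and at 0.23 and 0.12 (0.17, SE 0.04, adjusted p = 0.00203). The probe it rests on lies at chr12:132023861-132023920 in hg17, 205 kb from the second probe of that name at chr12:131819323-131819382, which read 0.06 and 0.00 and was not called. With the mean of both probes the rise at 10 Gy was not called (adjusted p = 0.0697), nor was it without the first array of U87 Si306 + 10 Gy (adjusted p = 0.0838). Whether the brighter probe measures POLE was not tested.

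After PT alone, 8 of these 11 genes rose and 1 fell at 2 Gy, against 32.2% and 25% of all genes, and 6 rose and 0 fell at 10 Gy, against 31.1% and 26.4%. POLA2, a subunit of the polymerase alpha and primase complex, read 0.63 and 0.66 in U87 2 Gy (0.64, SE 0.04, adjusted p = 2.55e-07, 1.56-fold) and 0.74 and 0.68 in U87 10 Gy (0.71, SE 0.04, adjusted p = 9.37e-08, 1.63-fold). FEN1, the flap nuclease, read 0.66 and 0.53 in U87 2 Gy (0.60, SE 0.04, adjusted p = 4.75e-07, 1.51-fold), its value at 10 Gy was 0.53, and its second probe rose too (0.54 and 0.45). LIG1, the ligase, rose from 0.26 at 2 Gy to 0.60 at 10 Gy, and POLE2 read 0.24 and 0.53. POLD1, the catalytic subunit of polymerase delta, fell at 2 Gy (-0.19), where its second probe read -0.02 and where 11 of the 11 genes were called higher under median centring. POLD3 rose at 2 Gy (0.20), where its dimmer second probe fell (-0.26). PRIM1, the primase, was not called at either dose (-0.00 and 0.06) and fell with Si306 (-0.32 and -0.33).

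All 5 genes of nucleotide supply fell with Si306 at both doses (medians -0.71 and -0.48). Under median centring 4 were called higher at 2 Gy, and 3 higher and 1 lower at 10 Gy, while 5 of 5 lay below genes of their brightness class at both doses. RRM2, the small subunit of ribonucleotide reductase that limits its activity in S phase, had the largest fall of the 47 genes in both Si306 configurations. There it read -0.94 and -0.91 at 2 Gy (-0.93, SE 0.03, adjusted p = 5.33e-09, 1.9-fold) and -0.88 and -0.90 at 10 Gy (-0.89, SE 0.03, adjusted p = 1.27e-08, 1.85-fold), and its second probe read -0.30 and -0.27. After PT alone the brighter probe (chr2:10219972-10220031 in hg17) read -0.57 and -0.53 at 2 Gy (-0.55, SE 0.03, adjusted p = 2.59e-07) and -0.33 and -0.42 at 10 Gy (-0.37, SE 0.03, adjusted p = 3.57e-06). The second probe, 1.11 kb away (chr2:10221085-10221144), read 0.28 and 0.76 there. The 2 probes thus fell together with Si306 and moved in opposite directions after PT, where no direction is drawn for the gene.

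TK1, thymidine kinase, read -0.84 and -0.89 in U87 Si306 + 2 Gy (-0.87, SE 0.04, adjusted p = 2.39e-08, 1.82-fold) and -0.39 and -0.40 in U87 Si306 + 10 Gy (-0.39, SE 0.04, adjusted p = 7.62e-06). RRM1, the large reductase subunit, fell by 0.56 and 0.48, and DUT, which removes dUTP, by 0.71 and 0.67. TYMS, which makes thymidylate, fell the least (-0.29 and -0.13).

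After PT alone TYMS rose, at 0.39 and 0.30 in U87 2 Gy (0.35) and at 0.89 and 0.92 in U87 10 Gy (0.90, SE 0.04, adjusted p = 6.13e-09, 1.87-fold). TK1 rose by 0.18 and 0.40 and RRM1 was not called (-0.07 and 0.03). DUT fell, at -0.30 and -0.40 in U87 2 Gy (-0.35, SE 0.04, adjusted p = 1.14e-05) and at -0.15 and -0.19 in U87 10 Gy (-0.17, SE 0.04, adjusted p = 0.00217). Under median centring its values were 0.33 and 0.39, above 0 but below the medians of its brightness class (0.64 and 0.53). The second probe named DUT fell in all 4 configurations as well (-0.42, -0.28, -0.49 and -0.59), but the annotation places it on chromosome 19 and the first on chromosome 15.

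Of the regulators, E2F1, E2F2, CCNE1 and CCNE2 all fell with Si306 (medians -0.51 and -0.39), and under median centring 2 of the 4 were called higher at 2 Gy and 1 higher and 1 lower at 10 Gy. E2F1, an activator of these genes, read -0.67 and -0.66 at 2 Gy (-0.66, SE 0.03, adjusted p = 2.49e-08) and -0.74 and -0.76 at 10 Gy (-0.75, SE 0.03, adjusted p = 1.91e-08). The value of E2F2 depended on the probe. Its brighter probe rose after PT, at 0.46 and 0.29 in U87 2 Gy (0.37, SE 0.05, adjusted p = 0.000101) and at 0.59 and 0.69 in U87 10 Gy (0.64, SE 0.05, adjusted p = 1.94e-06), and fell with Si306 (-0.54 on the 1 array with a value and -0.53). The second probe, 3.44 kb away, read -0.21, -0.29, 0.25 and 0.04 in the same order, and the mean of both was not called after PT (adjusted p = 0.35 and 0.058). Cyclin E1 (CCNE1) rose by 0.17 at 2 Gy and fell by 0.34 and 0.11 with Si306. Cyclin E2 (CCNE2) fell by 0.49 and 0.26 with Si306, and at 2 Gy of PT alone it was not well above background in either channel, so its call there gives no direction.

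The 3 genes of replication-coupled chromatin fell with Si306 at both doses, and under median centring 3 were called higher at 2 Gy, and 2 higher and 1 lower at 10 Gy. UHRF1, which brings DNA methylation to new strands, read -0.56 and -0.57 at 2 Gy (-0.57) and -0.74 and -0.80 at 10 Gy (-0.77, SE 0.03, adjusted p = 3.34e-08, 1.7-fold), and its second probe read -0.70 and -0.71. CHAF1A and CHAF1B, subunits of the chromatin assembly factor CAF-1, fell by 0.43 and 0.37 and by 0.39 and 0.29. After PT alone CHAF1B rose at both doses (0.18 and 0.28). UHRF1 rose at 2 Gy (0.36, arrays at 0.32 and 0.39) and was not called at 10 Gy (-0.05), while its second probe read 0.12 and 0.06.

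The 2 doses were compared within PT and within Si306. After PT, 19 of 47 genes were higher and 2 lower at 10 Gy than at 2 Gy (9.9% and 11.2% of all genes), with a median difference of 0.10 against -0.01 for all genes. The number higher was 12 with the log ratio of the scanner software, 6 under median centring and 26 with the replicate number as a block and the array as a random block. It was 9 without the first array of U87 10 Gy and 12 without the second. PCNA had the largest difference (0.73, SE 0.04, adjusted p = 6.16e-06), followed by TYMS (0.56, SE 0.05, adjusted p = 5.59e-05), and for both genes every array at 10 Gy lay above every array at 2 Gy. UHRF1 was lower at 10 Gy (-0.40, SE 0.05, adjusted p = 0.000327), though its second probe differed by -0.06 and was not called. POLD3 was the other gene that was lower (-0.18), and its second probe differed by 0.09 and was not called.

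With Si306, 8 genes were higher and 2 lower at 10 Gy (10.2% and 12.6% of all genes), with a median difference of 0.06. The counts after PT and with Si306 were not tested against each other. TK1 differed the most (0.47, SE 0.06, adjusted p = 0.000282), then CDT1 (0.30, SE 0.07, adjusted p = 0.00962) and CCNE2 (0.23, SE 0.06, adjusted p = 0.0249). Of these, TK1 was called with the log ratio of the scanner software but not under median centring (0.07). CDT1 and CCNE2 differed by 0.31 and 0.33 with the scanner software but were not called there (adjusted p = 0.0546 and 0.283). Under median centring CCNE2 was not called either (0.11, adjusted p = 0.277). CDT1 also lost its call without the second array of U87 Si306 + 10 Gy or the first of U87 Si306 + 2 Gy (adjusted p = 0.0671 and 0.0576), CCNE2 without either of these or the second of U87 Si306 + 2 Gy (adjusted p = 0.196, 0.111 and 0.0798), and CDT1 turned under median centring (-0.03). PCNA (-0.19) and UHRF1 (-0.20) were lower at 10 Gy. The whole count was open to single arrays, with 4 higher without the first array of U87 Si306 + 10 Gy, 1 without the second, and 2 and 4 without the first and second array of U87 Si306 + 2 Gy. Under median centring 1 gene was higher and 29 lower.

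**Figure D3:**
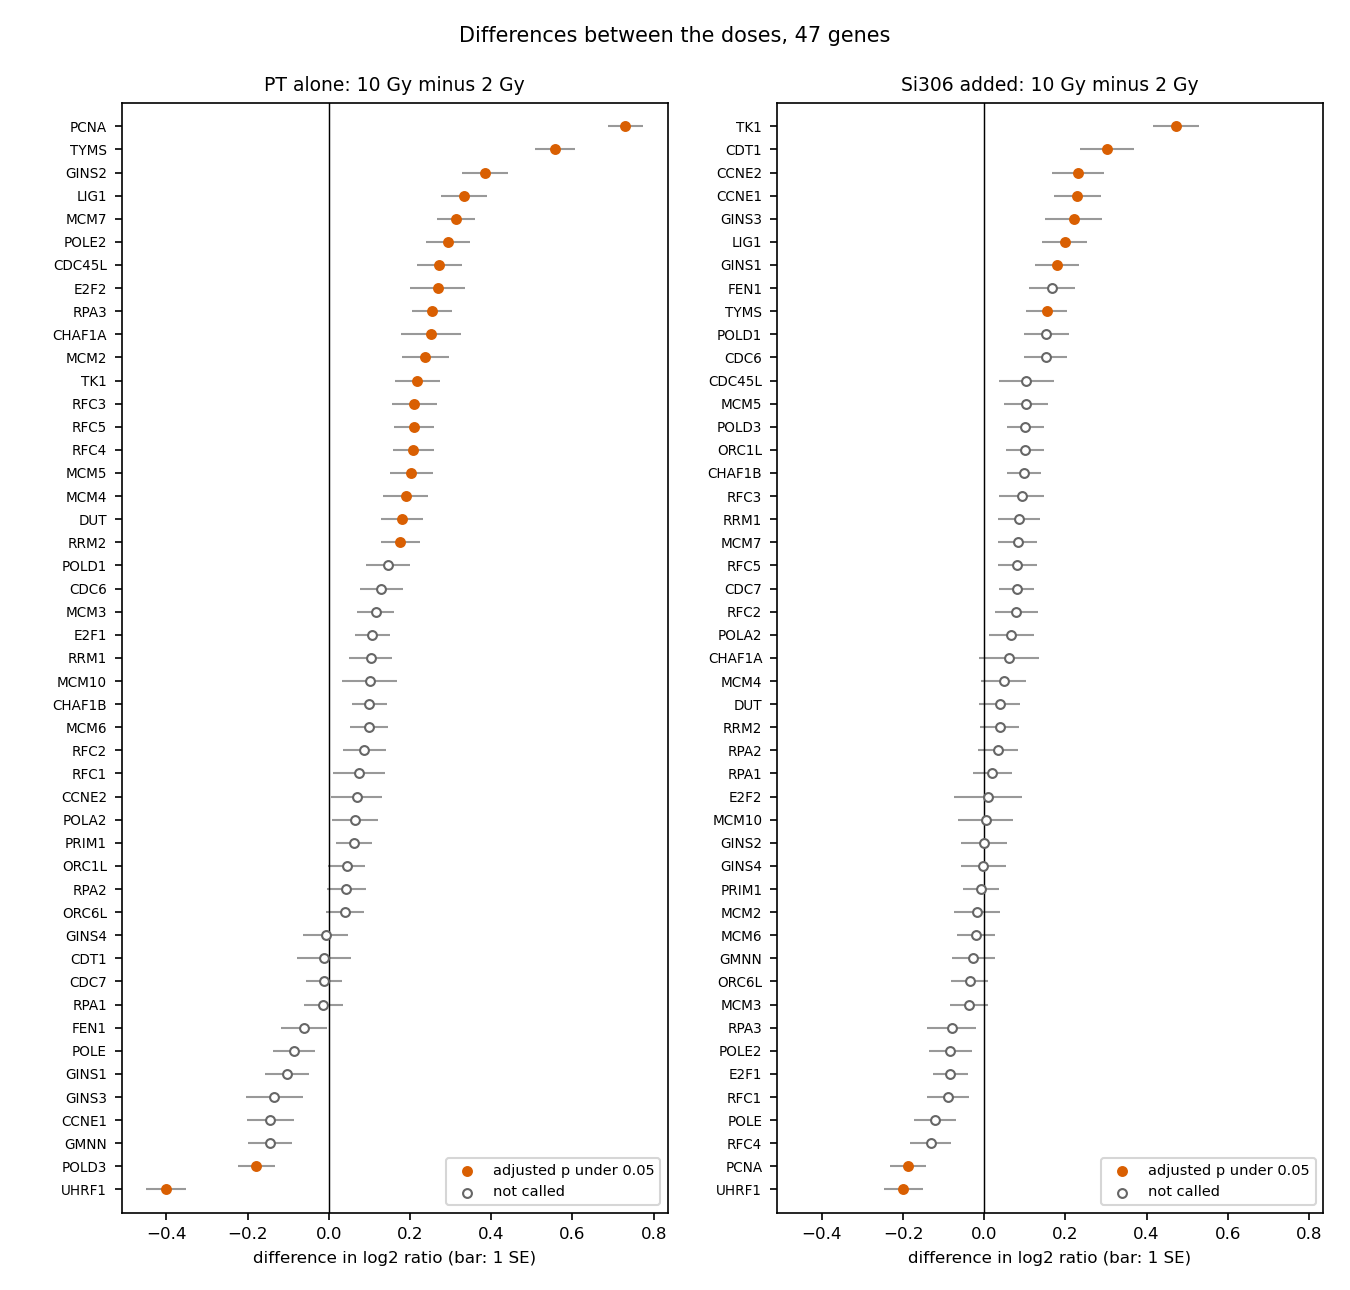
Difference in log2 ratio between 10 Gy and 2 Gy for the 47 genes after PT alone (left) and with Si306 added (right), each panel in its own order; bars are 1 SE and filled points have an adjusted p under 0.05. PCNA (0.73) and TYMS (0.56) stand highest after PT and TK1 (0.47) with Si306, while UHRF1 is lowest in both panels; under median centring 6 and 1 genes are called higher and 3 and 29 lower.

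Spread between arrays was small beside most of these changes. The 2 arrays of a configuration differed by a median of 0.05, 0.06, 0.04 and 0.04 over the 47 genes in the same order of configurations (PT at 2 and 10 Gy, then Si306 at 2 and 10 Gy), and at most by 0.24, 0.15, 0.13 and 0.16. Both arrays had the same sign for 40 of 46, 43 of 47, 44 of 45 and 44 of 46 genes with 2 values. Spread between probes was larger. For 15 genes with 16 further kept probes, the further probe had the opposite sign of the brightest in 5, 7, 3 and 4 cases, so a single gene with 1 probe carries an error that the SE over arrays does not hold.

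**Figure D4:**
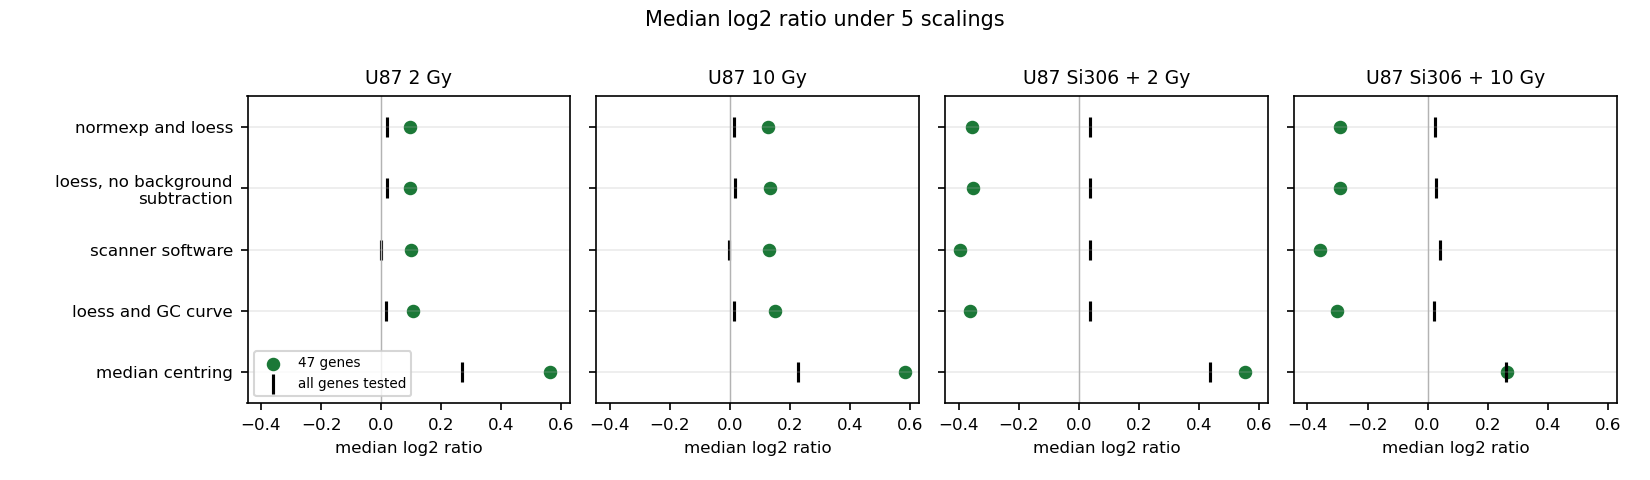
Median log2 ratio of the 47 genes (points) and of all genes tested (ticks) under 5 ways to scale the arrays. With Si306 the 47 genes lie below all genes under 4 scalings (medians of -0.40 to -0.29), and under median centring they lie at 0.55 and 0.26, beside 0.44 and 0.26 for all genes.

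Other genes of the same processes were counted from lists made by function, to be read beside the 27.9% of all genes that fell and 38.6% that rose in U87 Si306 + 2 Gy and the 27.2% and 35.3% in U87 Si306 + 10 Gy. Of 19 further fork and origin genes on the array, 10 fell and 5 rose in U87 Si306 + 2 Gy and 11 fell and 4 rose in U87 Si306 + 10 Gy (medians -0.10 and -0.16), while 16 and 15 were called higher under median centring. The largest falls at 2 Gy were those of CHTF18 (-0.58), a clamp loader subunit, TIMELESS (-0.54), of the fork protection complex, and the nuclease DNA2 (-0.39), while POLE4, a small subunit of polymerase epsilon, rose (0.31 and, at 10 Gy, 0.35). After PT alone, POLD2, a subunit of polymerase delta, rose the most (0.59 and 0.71), and the list as a whole split into 5 higher and 7 lower at 2 Gy and 7 higher and 4 lower at 10 Gy, beside 32.2% and 25% of all genes at 2 Gy and 31.1% and 26.4% at 10 Gy.

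Of 17 further S-phase genes of nucleotides, chromatin and repair, 11 fell at each dose with Si306, and 1 and 2 rose (medians -0.26 and -0.25), with 13 and 12 higher under median centring. NASP, a histone chaperone, fell by 0.90 and 0.67, EXO1, a nuclease, by 0.65 and 0.47, and DNMT1, which copies DNA methylation and works with UHRF1, by 0.60 and 0.52. After PT alone NASP rose (0.50 and 0.67), and TOP1, topoisomerase I, fell (-0.80 and -0.96).

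Of 21 genes of the RB and E2F circuit and of G1/S kinases and inhibitors, 13 and 11 fell and 5 and 4 rose with Si306, with 19 and 17 higher under median centring. RB1, which holds E2F factors in check, fell itself (-0.69 and -0.71). After PT alone CDKN1A, the p53 target that inhibits CDK2, rose more than 2-fold at 10 Gy (adjusted p = 2.35e-10) and by 0.38 at 2 Gy, and CCNA2, cyclin A2, fell (-0.46 and -0.79).

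The G2/M genes are the next wave of the cell cycle. Of 20 such genes, 16 fell and 1 rose in U87 2 Gy and 17 fell and 0 rose in U87 10 Gy (medians -0.35 and -0.49), while the medians of the 47 replication genes were 0.10 and 0.13. Of all genes, 25% fell and 32.2% rose at 2 Gy, and 26.4% and 31.1% at 10 Gy. Against 0 under median centring 10 of the 20 were higher and 3 lower at 2 Gy, and 4 higher and 12 lower at 10 Gy, and against genes of their brightness class 16 and 19 of 20 lay lower. TOP2A (-0.48 and -0.79), CCNB1 (-0.54 and -0.78) and PLK1 (-0.43 and -0.74), genes of chromosome condensation and mitotic entry, were among those that fell. From 2 to 10 Gy of PT, 11 of the 20 were lower and 0 higher, beside 2 lower and 19 higher of the 47 (6 higher and 3 lower under median centring, and 9 higher without the first array of U87 10 Gy), where 11.2% of all genes were lower and 9.9% higher. With Si306, 14 of the 20 G2/M genes fell and 1 rose at 2 Gy, and 11 fell and 2 rose at 10 Gy (medians -0.18 and -0.12). The shares of all genes were 27.9% and 38.6% at 2 Gy and 27.2% and 35.3% at 10 Gy. Under median centring 16 and 14 of the 20 were called higher. CENPF (-0.82 and -0.67) and PLK1 (-0.50 and -0.57) fell and TOP2A did not (-0.03 and 0.17). No test of the difference between the 2 lists was run.

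**Figure D5:**
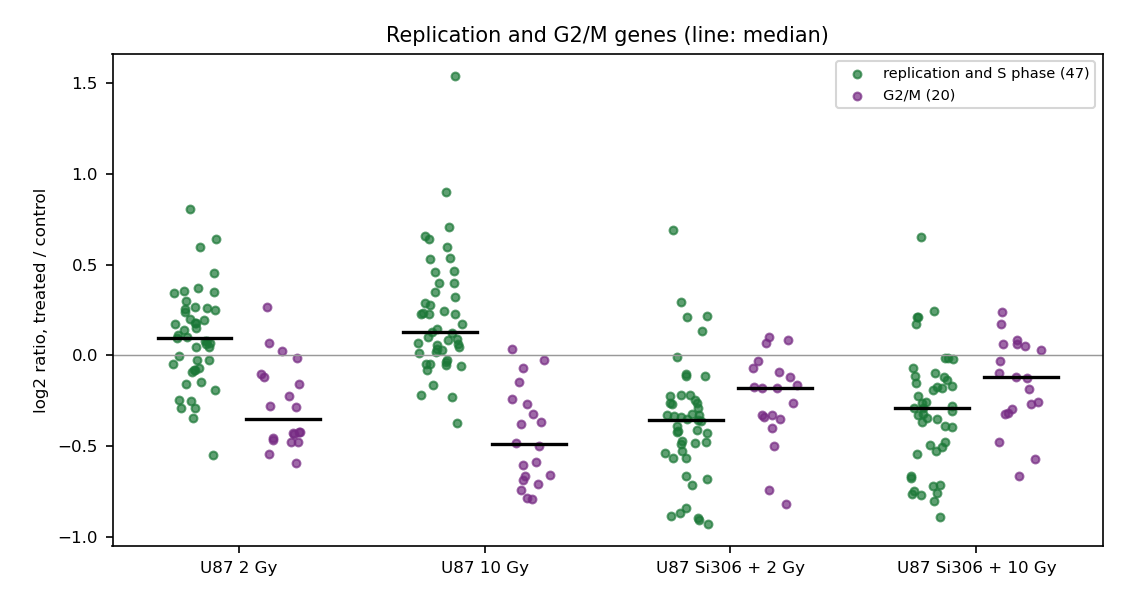
Log2 ratios (treated over control) of the 47 replication and S-phase genes and of 20 G2/M genes in each configuration, with 1 point for each gene and a line at the median. After PT the medians are 0.10 and 0.13 against -0.35 and -0.49, and with Si306 -0.36 and -0.29 against -0.18 and -0.12; under median centring the G2/M median turns at 2 Gy of PT (0.11), and both lists turn with Si306.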

How the data were processed

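The authors deposited, per the file headers, tables of Agilent Feature Extraction 9.5.3.1 with the mean signal intensity and local background of both dyes at 45015 spots and a log10 ratio of Cy5 to Cy3, and a series matrix of that ratio, equal within 0.005. The build of the annotation was hg17, and further normalization is not given in the sources used here. The members and gene lists were chosen with earlier results of these data known. Outlier spots (2.98% to 5.73% of a scan) were left out, intensities were corrected by normexp (offset 50), and log2 ratios were set by loess within each scan, with control spots at weight 0. Scans of an array were averaged. A probe was kept if, in some configuration, Cy5 or Cy3 was well above background on 2/3 or more of the arrays (30316 of 41000), and the brightest kept probe stood for its name. Of the 22847 names, 14102 were found among RefSeq genes. The model of limma 3.58.1 (R 4.3.3, statmod 1.5.0) was fitted to 8 arrays (residual degrees of freedom 4, prior 6.58), and p-values were adjusted over all genes by Benjamini-Hochberg; a gene was called at an adjusted p under 0.05. The number of arrays limits the precision. The fit was tested on simulated data, where it returned log2 changes somewhat smaller than those put in, so that folds are likely understated and a measured change just under 2-fold does not show that the change was below it. Values on each array are given for the 5 largest rises and falls of a configuration with the same sign on the arrays measured and for the 3 largest differences between doses. The alternatives were other background corrections, scalings, filters, probes and uses of the scans, a curve on GC content, the replicate number as a block, each slide alone and each array left out. A reading of median-centred values against genes of the same brightness class was chosen after seeing the data.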

Additional observations from a re-analysis of the deposited data

Results flagged for a closer look

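The difference between 10 and 2 Gy was tested for each gene and passed an adjusted p of 0.05 in limma in the following cases. After PT, the log2 ratio to untreated cells was higher at 10 Gy by 0.73 for PCNA and by 0.56 for TYMS. Among helicase and firing genes it was higher by 0.24 for MCM2, 0.19 for MCM4, 0.20 for MCM5, 0.31 for MCM7, 0.27 for CDC45L and 0.38 for GINS2. It was higher by 0.21 for each of RFC3, RFC4 and RFC5, by 0.29 for POLE2, by 0.25 for RPA3 and by 0.33 for LIG1. For RRM2 and DUT the difference was 0.18, for TK1 0.22, for E2F2 0.27 and for CHAF1A 0.25. The second probes of E2F2, RFC3 and DUT differed by -0.08, 0.06 and 0.15 without a call, and that of RRM2 by 0.48 with a call. POLD3 (-0.18) and UHRF1 (-0.40) were lower at 10 Gy.

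With Si306, where the ratio is to PT alone at the same dose, the difference was 0.47 for TK1, 0.30 for CDT1 and 0.23 for both CCNE1 and CCNE2. It was 0.22 for GINS3, 0.18 for GINS1, 0.20 for LIG1 and 0.15 for TYMS. PCNA (-0.19) and UHRF1 (-0.20) were lower at 10 Gy. The second probes of GINS3 and UHRF1 differed by 0.11 and -0.02 without a call, and that of CDT1 by 0.29 with a call. With 2 arrays a configuration, no array was set against its group as an outlier.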

How the results depend on the processing

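Scaling changed the most. Under median centring 42 genes were higher and 2 lower in U87 2 Gy, 44 and 2 in U87 10 Gy, 38 and 2 in U87 Si306 + 2 Gy and 32 and 6 in U87 Si306 + 10 Gy, with medians of 0.561, 0.582, 0.554 and 0.264, so both Si306 medians reversed. In the dose differences 6 genes were then higher after PT, and 1 higher and 29 lower with Si306. Less the median of equally bright genes, an alternative chosen after seeing the data, the medians were 0.0177 in U87 2 Gy, 0.0934 in U87 10 Gy and -0.264 in U87 Si306 + 10 Gy. Of the 46 and 43 genes called with Si306 at 2 and 10 Gy, 10 and 14 kept their sign under median centring and 32 and 24 were called the opposite way, as were 7 of 32 in U87 2 Gy and 3 of 30 in U87 10 Gy. Among the 45 values of genes named by rule, those that reversed were, in U87 2 Gy, RRM2 (0.0502), DUT (0.326), RFC1 (0.375), MCM2 (0.253) and MCM7 (0.42), in U87 10 Gy RRM2 (0.123), GINS3 (0.265), RFC1 (0.275) and DUT (0.392), in U87 Si306 + 2 Gy CDC45L (0.0507), GINS3 (0.0945) and TK1 (0.377), in U87 Si306 + 10 Gy MCM7 (0.0454), and CDT1 in the dose difference with Si306 (-0.0346). With the mean of all kept probes RRM2 in U87 10 Gy reversed (0.192), the PT medians were 0.0779 and 0.171, and 1 gene was lower in each dose difference. The log ratio of the scanner software and that of the series matrix gave medians of -0.396 and -0.359 with Si306 and dose differences of 12 higher and 1 lower after PT and 3 and 1 with Si306. With each labelled sample as a replicate, the median in U87 2 Gy was 0.113, 9 genes were lower in U87 10 Gy, and 15 were higher and 5 lower between doses with Si306. A curve on GC content gave a median of 0.151 in U87 10 Gy, and without a filter on dim probes 4 genes were higher between doses with Si306. The cause was not tested for any of these.

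With each array left out in turn, 19 to 23 genes were higher and 8 to 9 lower in U87 2 Gy (median 0.0895 to 0.13), 23 to 27 and 3 to 4 in U87 10 Gy (0.127 to 0.151), 4 to 5 and 37 to 41 in U87 Si306 + 2 Gy (-0.375 to -0.355) and 4 to 5 and 32 to 38 in U87 Si306 + 10 Gy (-0.309 to -0.291). Between doses 9 to 19 were higher and 1 to 3 lower after PT, with 9 without the first array of U87 10 Gy, and 1 to 9 higher and 0 to 2 lower with Si306, with 1 and 0 without the second array of U87 Si306 + 10 Gy and 2 and 0 without the first of U87 Si306 + 2 Gy. With the replicate number as a block and the array as a random block, 14 genes were higher and 4 lower between doses with Si306 and 26 and 3 after PT. Same-numbered scans did not deviate together (correlations of -0.0841 to 0.086 over 30 pairs). These are repeat scans of 2 arrays a configuration, so whether arrays or cultures were paired cannot be told from this. Of the other values, 266 counts and medians moved less than the limits used here (1.5 times for a count, 0.0162, the SD between arrays, for a median), such as 19 and 11 in place of 23 and 9 in U87 2 Gy with the scanner software, and, for the 45 values named by rule alone, 861 of 896 alternative values kept direction and call and 20 kept direction without a call. Signal over background limits GINS1 and CCNE2 after PT, and the ORC1L probe was nearly as dim as that of GINS1. In U87 2 Gy the probes of ORC1L and GINS4 were well above background in Cy3 on only 1 array, which limits their calls there. In U87 2 Gy and U87 10 Gy, 43 and 45 of the 47 genes were well above background in both channels on both arrays.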
